A study of Homo sapiens with 4 samples.

Results

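Members of the chloride channel families were followed across the colorectal cancer cell line DLD1 and lines derived from it. The set held 7 genes, CLIC1, CLIC3, CLIC4, CFTR, ANO1, ANO6 and CLCN3, out of 57746 genes in the deposited table, and all 7 were found there by symbol. The genes were picked with their levels in these same libraries known, so those levels are given as a description and carry no test. The lines were SA, grown out of soft agar colonies and labelled mesenchymal, SPH, grown out of colonospheres and labelled mesenchymal, METS, established from a xenograft's metastasis in the lung and labelled epithelial, and the parental DLD1, labelled epithelial. All 4 lines were kept in McCoy's medium with serum, and each is represented by 1 library of total RNA, so no difference between 2 lines has a replicate check. Whether a derived line is a clone or a pool is not given in the sources used here.

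Chloride leaves epithelial cells of the colon mainly through CFTR, a channel of the apical membrane that opens when protein kinase A phosphorylates it, and water follows the salt into the crypt. Anoctamins include ANO1, a chloride channel opened by calcium, and ANO6, a calcium-dependent scramblase that moves phosphatidylserine to the outer leaflet and also conducts ions. CLCN3 exchanges chloride for protons in endosomes, and the CLIC proteins are small, partly soluble relatives of glutathione transferases whose place as channels is debated and which also act in vesicle traffic and redox reactions.

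The members fell into 3 patterns. CLIC3 was highest in METS at 11.93 RPKM (reads scaled to gene length and library size) and did not exceed 2.13 RPKM in the other lines. CFTR went the other way, at 0.44 RPKM in METS and between 3.27 and 5.53 RPKM elsewhere. ANO1 and ANO6 were measured almost only in SA and SPH, and CLIC1, CLIC4 and CLCN3 were well expressed in all 4 lines and differed little.

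The sequences upstream of the members that varied most between lines are shown, since ANO1 and ANO6 had the same pattern over the lines while CLIC3 and CFTR had opposite ones. Each is the 250 bases before a RefSeq transcript start (GRCh38.p14, 5′ to 3′ on the gene's strand), with matches to the GC box GGGCGG or the TATA box TATAAA, on either strand, in capitals. They lie at chr11:69985657-69985906 (+ strand) for ANO1, chr12:45292440-45292689 (+ strand) for ANO6, chr9:136996569-136996818 (- strand) for CLIC3 and chr7:117479775-117480024 (+ strand) for CFTR. Other transcript starts of these genes are not covered. Whether the starts shown are the main ones, or are used in these lines, was not tested.
ANO1: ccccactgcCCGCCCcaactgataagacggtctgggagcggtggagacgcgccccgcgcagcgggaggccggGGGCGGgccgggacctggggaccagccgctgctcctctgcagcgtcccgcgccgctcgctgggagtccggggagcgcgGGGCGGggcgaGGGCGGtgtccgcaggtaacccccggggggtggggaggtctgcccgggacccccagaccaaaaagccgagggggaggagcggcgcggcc
ANO6: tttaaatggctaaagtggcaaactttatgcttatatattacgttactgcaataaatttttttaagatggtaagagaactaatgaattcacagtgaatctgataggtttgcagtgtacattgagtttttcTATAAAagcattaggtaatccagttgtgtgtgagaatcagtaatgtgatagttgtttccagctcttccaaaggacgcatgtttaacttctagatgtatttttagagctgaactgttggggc
CLIC3: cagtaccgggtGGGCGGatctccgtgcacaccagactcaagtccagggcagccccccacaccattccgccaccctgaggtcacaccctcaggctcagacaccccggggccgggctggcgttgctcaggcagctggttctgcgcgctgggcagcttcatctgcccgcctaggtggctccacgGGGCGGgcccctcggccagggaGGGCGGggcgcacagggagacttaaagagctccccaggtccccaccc
CFTR: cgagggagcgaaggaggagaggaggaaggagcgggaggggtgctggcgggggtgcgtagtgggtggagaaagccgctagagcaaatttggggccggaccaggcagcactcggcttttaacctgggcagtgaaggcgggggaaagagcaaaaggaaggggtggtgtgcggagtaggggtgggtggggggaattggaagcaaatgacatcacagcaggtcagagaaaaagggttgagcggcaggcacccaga

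The 2 anoctamin sequences had little in common in base composition. The ANO1 sequence held 30 CpG dinucleotides and 78% G and C, against 2 CpG and 33.6% for ANO6 and medians of 11 CpG and 58% over 35116 promoters in the RefSeq table. CLIC3 had 15 CpG and 70.4% G and C, and CFTR 11 CpG and 61.2%. The GC box matched 4 times in ANO1 and 3 times in CLIC3, without overlap, and in neither ANO6 nor CFTR; 42.6% of all promoters held it. The TATA box matched 1 time, in ANO6, against 10.7% of all promoters. The E-box CAGGTG (17.5% of promoters), the TCF-type motif CTTTGA (11.2%) and the AP-1 motif TGANTCA (6.57%), searched on both strands, had no match in these 4 windows.

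Depth was similar between lines. From the step size of low values, a transcript of 1 kb at 1 RPKM was estimated to hold 48.4 reads in SA, 52.9 in SPH, 50.4 in METS and 53.7 in DLD1. The intervals given with ratios and drawn in the plot of members are 95% Poisson or binomial intervals on reads estimated this way, with gene lengths from GENCODE 29, and cover counting error only. They leave out the error of the depth estimate, which is approximate. Its fit to whole reads (1 being perfect) scored from 0.48 in SA to 0.57 in DLD1. The best depths more than 5 reads away scored from 0.33 in METS to 0.42 in SPH. All 6 colon epithelial markers (EPCAM, CDH1, KRT8, KRT18, CDX2, VIL1) were measured, with summed levels of 1391 RPKM in SA, 1458 in SPH, 2345 in METS and 1858 in DLD1, carried mostly by KRT8 and KRT18. VIL1 was low, at 1.89 RPKM in SA, 1.41 in SPH, 3.35 in METS and 1.39 in DLD1, and the lowest value of the other 5 was 27.6 RPKM (CDX2 in METS). Markers of other cells were low, with CD14 at up to 1.36 RPKM and VWF at up to 0.26. PTPRC and CD3E of leukocytes and CDH5 and KDR of endothelium are listed at 0 in every line, the fibroblast markers summed to at most 0.15 RPKM, the neural markers to at most 0.08 RPKM and the lung epithelial markers to between 0.88 and 1.38 RPKM, nearly all of it AGER. In bulk RNA, fewer cells that express a gene and less RNA per cell cannot be told apart.

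CLIC3, a family member known as a partner of integrin recycling and as a secreted oxidoreductase in tumours, stood at 1.54 RPKM in SA, 2.08 in SPH, 11.93 in METS and 2.13 in DLD1. The METS level lies far above the other 3, which overlap in their counting intervals (from 1.24 to 2.53 RPKM over all 3). METS over DLD1 was 5.60 (counting interval 4.64 to 6.77, from about 708 and 135 reads), or 2.05 on the scale of log2(RPKM + 1). That was the 7th highest fold of 11275 genes of at least 1 RPKM in either line. In METS against DLD1, 59 of those genes (0.523%) were at least 2-fold higher, and CLIC3 was the 1 member among them. The log2 fold against DLD1 was -0.30 in SA and -0.02 in SPH. As ratios, SA over DLD1 was 0.72 (counting interval 0.55 to 0.95) and SPH over DLD1 0.98 (0.76 to 1.25). SPH over SA was 1.35 (1.02 to 1.79). The ratio intervals thus put SA below SPH and DLD1, while the intervals of the levels themselves overlap. Neither kind of interval covers the spread between cultures, so no order of these lines is read from them.

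CLIC1, the most abundant family member and a protein that inserts into membranes on oxidation, stood at 140 RPKM in SA, 154 in SPH, 175 in METS and 166 in DLD1. It ranked 164th by mean level among all genes with a value above 0. CLIC4, which moves between cytoplasm and nucleus and responds to TGF-beta in other cells, stood at 32.7 RPKM in SA, 28.2 in SPH, 43.6 in METS and 36.7 in DLD1. Both genes were highest in METS, next in DLD1 and lower in the mesenchymal lines, with counting intervals apart for every pair of lines. Their log2 folds against DLD1 ran from -0.37 (CLIC4 in SPH) to 0.24 (CLIC4 in METS). None reached 2-fold, and SPH and SA, the 2 lines of the same label, already differed by 0.14 for CLIC1 and -0.21 for CLIC4 on the log2(RPKM + 1) scale. The pseudogene CLIC1P1 is listed at 0 in all 4 lines.

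The rest of the CLIC family was low. CLIC5, which links membrane to the actin cortex in hair cells and podocytes, stood at 1.92 RPKM in SA, 1.73 in SPH, 2.17 in METS and 2.41 in DLD1. CLIC6 is listed at 0 throughout. Among the 4 CLIC genes that reached 1 RPKM, CLIC3 in METS was the 1 gene with a 2-fold difference from DLD1 on the log2(RPKM + 1) scale. CLIC2, under that minimum, stood at 0.13 RPKM in SA, 0.09 in SPH, 0.04 in METS and 0.01 in DLD1.

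CFTR stood at 5.53 RPKM in SA, 3.92 in SPH, 0.44 in METS and 3.27 in DLD1. The counting intervals of all 4 lines were apart, with SA highest and METS lowest. METS over DLD1 was 0.135 (counting interval 0.116 to 0.155, from about 207 and 1641 reads), a log2 fold of -1.57 and the 21st lowest of 11275. At least 2-fold lower were 101 of those genes (0.896%). SA over DLD1 was 1.69 (1.59 to 1.80; log2 fold 0.61, 149th highest of 11367), and SPH over DLD1 was 1.20 (1.12 to 1.28; log2 fold 0.20). SPH and SA differed by -0.41 on the log2(RPKM + 1) scale, the widest gap between these lines among the members. With a pseudocount of 5 RPKM the log2 fold of CFTR in METS was -0.60, short of 2-fold.

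ANO6 stood at 1.07 RPKM in SA (about 426 reads) and 1.03 in SPH (about 449 reads) and is listed at 0 in METS and DLD1. At this depth 3 reads would be 0.0072 RPKM in METS and 0.0068 in DLD1, close to the smallest value the table can show, so an entry of 0 allows fewer reads than that. No fold is given against a line listed at 0. On the log2(RPKM + 1) scale ANO6 passed the 2-fold rule in SA, beside 50 of 11367 genes higher (0.44%), and in SPH, beside 82 of 11446 (0.716%), the 1 member to do so in either line. It entered these comparisons only through the lines where it was high. A gene listed at 0 in DLD1 passes this rule whenever it reaches the minimum of 1 RPKM. The call was thus fixed by the filter and adds nothing to the levels. With a pseudocount of 5 RPKM ANO6 did not pass, at 0.28 in SA and 0.27 in SPH.

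ANO1 had the same order at a lower level, with 0.79 RPKM in SA, 0.73 in SPH, 0.01 in METS and 0.04 in DLD1. SA and SPH overlapped in their counting intervals and lay well above the other lines, which rest on about 3 reads in METS and 13 in DLD1. SA over DLD1 was 19.8 (counting interval 11.3 to 37.4) and SPH over DLD1 18.25 (10.4 to 34.7). These ratios use the DLD1 value as rounded in the table, and the intervals do not cover that rounding. ANO1 stayed under 1 RPKM in every line and was not among the genes counted, so 6 of 7 members entered the comparisons of SA and SPH with DLD1, and 5 entered that of METS, where ANO6 also fell under the minimum. An antisense gene inside the ANO1 locus, ANO1-AS2, is listed at 0 in all lines.

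The other anoctamins above 1 RPKM differed little between lines. ANO9, reported as a scramblase, stood at 12.0 RPKM in SA, 13.4 in SPH, 11.9 in METS and 11.7 in DLD1, ANO8, which tethers membranes of the endoplasmic reticulum to the plasma membrane, at 7.31 in SA, 8.35 in SPH, 6.71 in METS and 7.88 in DLD1, and ANO10 at 4.63 in SA, 4.21 in SPH, 5.19 in METS and 5.18 in DLD1. Their log2 folds against DLD1 lay between -0.25 and 0.18. Of 10 anoctamins in the table, these 3 and ANO6 reached 1 RPKM in a line. ANO9 and not ANO1 or ANO6 was thus the most abundant anoctamin in every line, per gene length.

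CLCN3 stood at 16.6 RPKM in SA, 14.6 in SPH, 20.8 in METS and 16.8 in DLD1. SA and DLD1 overlapped in their counting intervals, METS was above both and SPH below. The log2 folds against DLD1 were -0.02 in SA, -0.19 in SPH and 0.29 in METS. Within its family CLCN3 was the most abundant, ahead of the lysosomal exchanger CLCN7 (6.53 RPKM in SA, 6.90 in SPH, 5.95 in METS and 6.90 in DLD1) and the endosomal CLCN6 (3.90, 4.04, 3.28 and 3.82 in the same lines). OSTM1, the subunit that stabilises CLCN7, lay between 3.14 and 3.43 RPKM. None of the 6 other genes of this list that reached 1 RPKM differed 2-fold from DLD1 in any line.

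**Figure D1:**
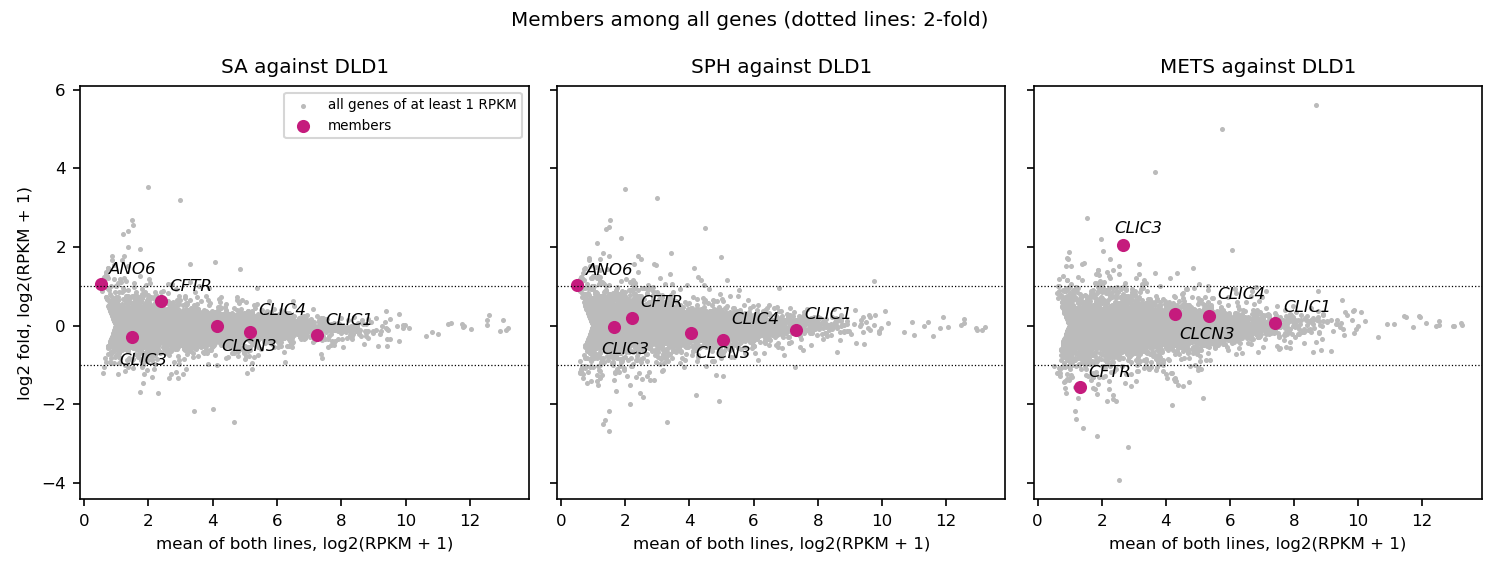
Log2 fold against DLD1 (vertical axis, log2(RPKM + 1) scale) and mean level of the 2 lines (horizontal axis, same scale) for all genes of at least 1 RPKM, with members in colour. CLIC3 at 2.05 and CFTR at -1.57 lie outside the 2-fold lines in METS, and ANO6 lies just outside them in SA and SPH.

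The labelled classes were then set side by side. For all 7 members the levels of SA and SPH did not overlap those of METS and DLD1, with CFTR, ANO1 and ANO6 higher in the mesenchymal lines and CLIC1, CLIC3, CLIC4 and CLCN3 lower. For CLCN3 this rests on 16.6 RPKM in SA against 16.8 in DLD1, and for CLIC3 on 2.08 in SPH against 2.13 in DLD1. In both pairs the counting intervals overlap. Of the genes of at least 1 RPKM in 2 libraries, 4256 of 11262 (37.8%) showed no overlap in either direction, and 6 members were among them. Since the members were chosen on these values nothing is read from that count. The mean class difference was 1.19 for CFTR and -1.19 for CLIC3 on the log2(RPKM + 1) scale, but METS weighs heavily in both: in DLD1, CLIC3 (2.13 RPKM) was level with SPH (2.08 RPKM) and CFTR (3.27 RPKM) was close to it (3.92 RPKM).

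Other genes of chloride transport gave the setting for the members, with 88 genes that are not members in 9 lists. In SA and in SPH against DLD1 none of the 51 that reached 1 RPKM differed 2-fold, against 0.677% and 1.26% of all genes. In METS 2 of 53 did, 1 higher and 1 lower, against 1.42%. The median log2 folds of the 88 genes' measured part were -0.05 in SA, 0.01 in SPH and -0.11 in METS, beside 0.03, 0.03 and -0.03 for all genes. The gene at least 2-fold higher in METS was KCNN4, a basolateral potassium channel opened by calcium that drives chloride secretion.

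KCNN4 stood at 0.32 RPKM in SA, 0.38 in SPH, 1.21 in METS and 0.10 in DLD1, a log2 fold of 1.01 in METS at the edge of the rule. It reached the minimum of 1 RPKM in METS alone, so it entered this comparison only through the line where it was high. The call therefore adds little to the levels, and KCNN4 was not among the genes counted in SA or SPH. In the list of scramblases and flippases TMEM30A, a chaperone subunit of flippases, was level, at 31.8 RPKM in SA, 29.8 in SPH, 30.6 in METS and 28.8 in DLD1. The flippase ATP8B1 stood at 12.2 RPKM in SA, 14.4 in SPH, 7.63 in METS and 11.4 in DLD1, and PLSCR1 at 9.97, 9.86, 8.79 and 10.9 in the same lines.

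**Figure D2:**
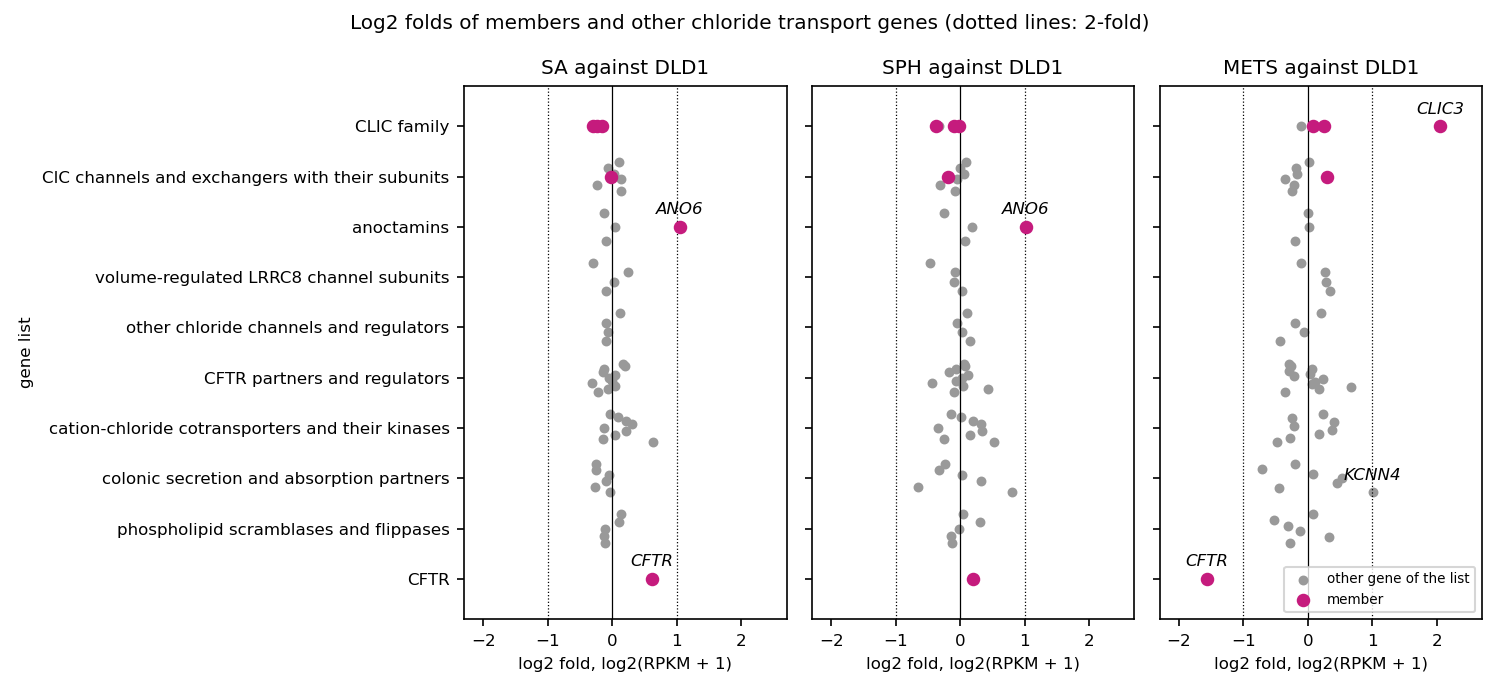
Log2 fold against DLD1 (log2(RPKM + 1) scale) of members, in colour, and of the other reported genes of at least 1 RPKM in each list, 1 panel per derived line, with dotted lines at 2-fold. CLIC3 at 2.05, CFTR at -1.57 and KCNN4 at 1.01 stand apart in METS, where ANO6 is under 1 RPKM and has no point.

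In the test of the labelled classes (SA and SPH against METS and DLD1, limma-trend with Benjamini-Hochberg adjustment over 11262 genes), 40 genes passed adjusted p 0.05 (0.355%), and none of the 51 tested genes of the 9 lists was among them. At an unadjusted p under 0.05 there were 4 of 51, beside 974 of 11262 genes (8.65%). Without the trend 0 of the 51 passed adjusted and 5 unadjusted, beside 42 and 993 of all 11262 genes. The p-values measure the spread between 2 different lines of a class. SLC12A2, the cotransporter that loads chloride into the cell across the basolateral membrane, came closest, at 66.2 RPKM in SA and 61.2 in SPH against 30.1 in METS and 42.5 in DLD1 (log2 fold 0.81 ± 0.17, SE; adjusted p = 0.28, limma-trend; 2 lines per class). EZR, which anchors the scaffold of CFTR to actin, stood at 127 RPKM in SA and 117 in SPH against 172 in METS and 159 in DLD1 (-0.44 ± 0.11; adjusted p = 0.34, limma-trend). Without the DLD1 library the log2 fold of SLC12A2 was 1.06, with METS then the lone epithelial line and assumed to vary like the others.

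Of the proteins that hold or degrade CFTR, NHERF1, listed under its older symbol, stood at 54.0 RPKM in SA, 58.8 in SPH, 48.8 in METS and 63.0 in DLD1, and the ubiquitin ligase STUB1 at 56.1 in SA, 58.6 in SPH, 64.2 in METS and 61.2 in DLD1. PDZK1, another scaffold of apical transporters, named after its values were seen, stood at 0.22 RPKM in SA, 0.17 in SPH, 1.20 in METS and 0.39 in DLD1. Of the SLC26 anion transporters on the list of CFTR partners, SLC26A6 stood at 7.74 RPKM in SA, 7.37 in SPH, 9.35 in METS and 7.76 in DLD1, while SLC26A3 and SLC26A9 did not exceed 0.01 RPKM in any line (all 3 named after their values were seen).

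The subunits of KCNQ1 channels, the basolateral potassium exit that works with CFTR, differed in opposite directions (named after their values were seen). KCNQ1 stood at 4.97 RPKM in SA, 9.70 in SPH, 3.50 in METS and 5.12 in DLD1, while its regulatory subunit KCNE3 stood at 2.15 in SA, 1.41 in SPH, 4.22 in METS and 2.81 in DLD1. SPH thus had the highest KCNQ1 and the lowest KCNE3, and METS the reverse. KCNE3 did not pass the class test (-0.69 ± 0.20; adjusted p = 0.43, limma-trend). The sodium channel subunit SCNN1A stood at 32.4 RPKM in SA, 43.9 in SPH, 50.4 in METS and 34.8 in DLD1, and the sodium pump subunit ATP1B1 was level, between 57.5 and 62.6 RPKM.

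**Figure D3:**
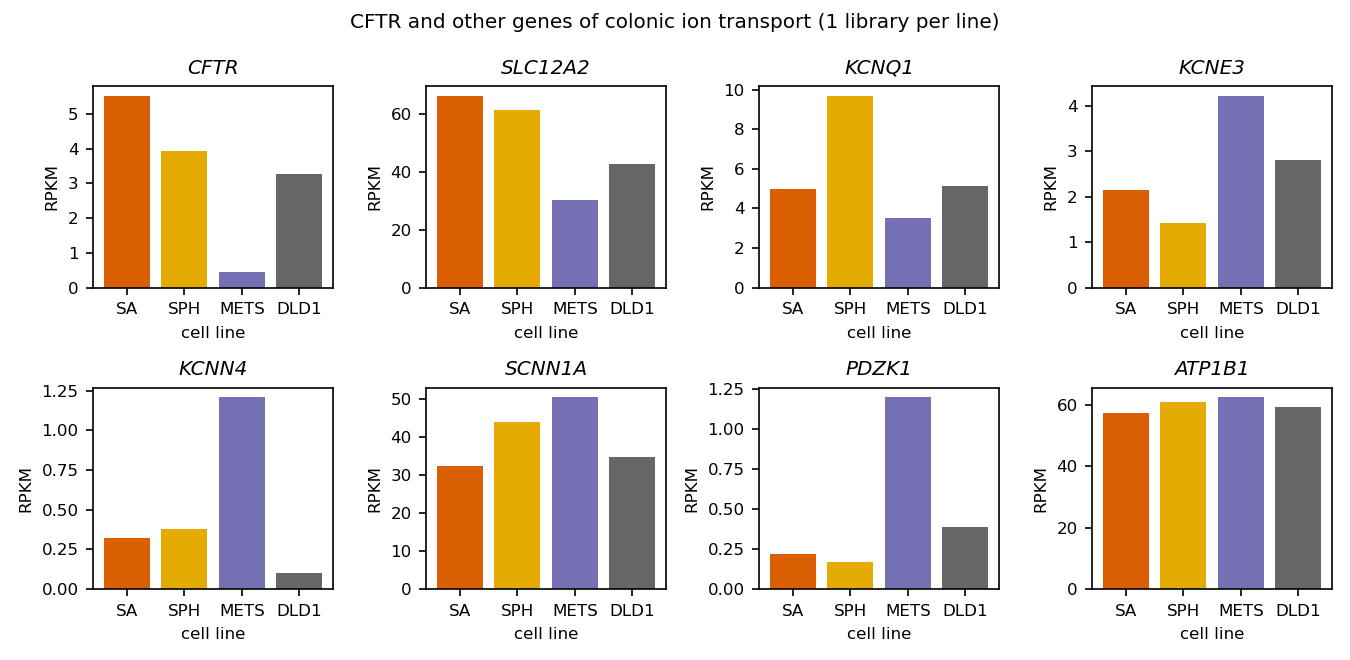
Level in RPKM of CFTR and of other genes of colonic ion transport in SA, SPH, METS and DLD1, with bars starting at 0 and 1 library per line. METS has the lowest CFTR (0.44 RPKM) and SLC12A2 (30.1 RPKM) and the highest KCNN4, KCNE3, SCNN1A and PDZK1.

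The volume-regulated channel was expressed in all lines. LRRC8A, its obligatory subunit, stood at 8.69 RPKM in SA, 9.52 in SPH, 12.1 in METS and 9.33 in DLD1, LRRC8D at 7.21 in SA, 5.63 in SPH, 7.36 in METS and 5.98 in DLD1, and LRRC8B at 2.41 in SA, 2.14 in SPH, 3.05 in METS and 2.34 in DLD1. The largest log2 fold of these 3 was 0.34, for LRRC8A in METS. LRRC8E stood at 1.96 RPKM in SA, 1.64 in SPH, 2.37 in METS and 2.64 in DLD1, with a log2 fold of -0.46 in SPH. It was the 1 subunit at an unadjusted p under 0.05 in the class test (-0.33 ± 0.12; adjusted p = 0.55, limma-trend). Among other chloride channel genes CLNS1A lay between 21.4 and 24.9 RPKM, CLCC1 between 5.96 and 6.97, and TTYH3 stood at 17.5 in SA, 20.8 in SPH, 13.6 in METS and 18.7 in DLD1. Bestrophins did not exceed 0.15 RPKM, and CLCA1, CLCA2 and CLCA4 are listed at 0. The potassium-chloride cotransporter SLC12A7 lay between 15.3 and 20.1 RPKM and the kinase OXSR1, which activates SLC12A2, between 11.9 and 15.7.

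For the 3 members with a range of at least 1 on the log2(RPKM + 1) scale, the most alike of 11664 genes were found by the distance between centred profiles over the 4 lines. CLIC3 was nearest to MEGT1 (distance 0.28), ALDH1A1 (0.31) and CDKN1C (0.31). ALDH1A1, a retinaldehyde dehydrogenase, is listed at 0 in SA and stood at 0.01 RPKM in SPH, 2.78 in METS and 0.03 in DLD1. CFTR was nearest to CADPS (0.24), SLC2A3 (0.35) and CD44 (0.46), and CADPS, a factor of dense-core vesicle release, stood at 3.97 RPKM in SA, 3.42 in SPH, 0.27 in METS and 2.20 in DLD1. ANO6 was nearest to CBS (0.04), GLI3 (0.04) and LIMS3_2 (0.06). LIMS3_2 has a near-identical copy that may share its reads. Whether reads of CBS were shared with a copy, on the hg19 build, was not tested. With 4 libraries such likeness describes these lines only, and with a pseudocount of 0.1 RPKM 4 of the 9 genes were still among the nearest 3.

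**Figure D4:**
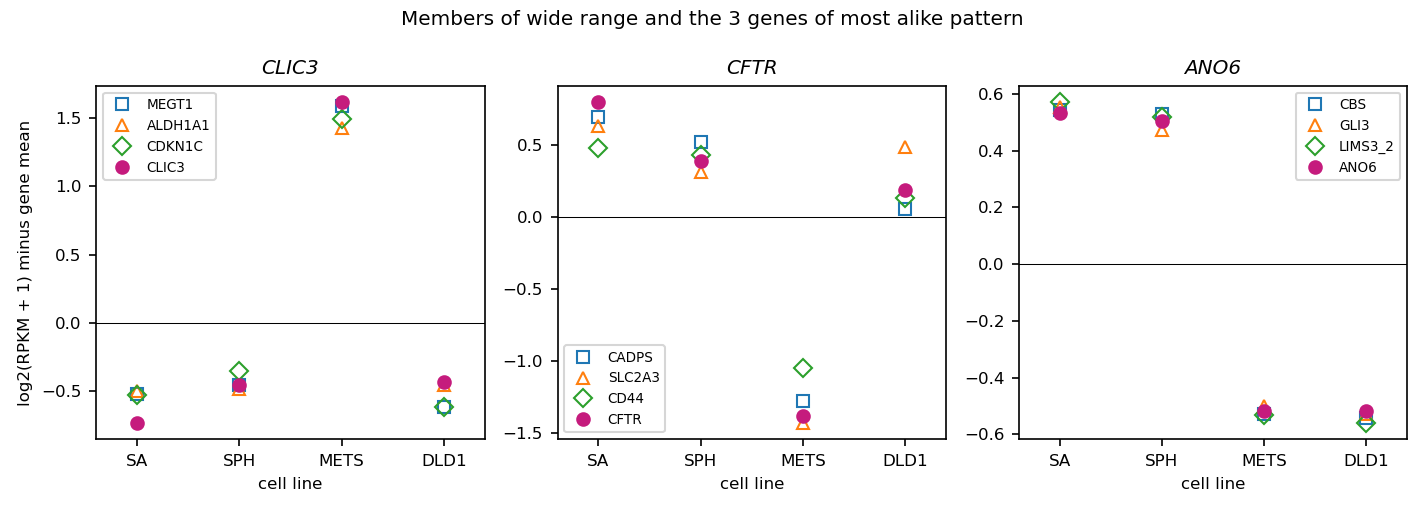
Profiles over SA, SPH, METS and DLD1 of CLIC3, CFTR and ANO6 and of the 3 genes nearest to each, as log2(RPKM + 1) minus the gene's mean over the 4 lines. The CLIC3 profiles peak in METS, the CFTR profiles are lowest in METS, and the ANO6 profiles are high in SA and SPH.

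Genes beside the members on the chromosome were read to see whether they had the members' patterns. Of 42 neighbours, 3 on each side of each member in the order of the RefSeq table, 12 reached 1 RPKM. None of the 12 differed 2-fold from DLD1 in a derived line. Over all genes the share that did was 0.677% in SA, 1.26% in SPH and 1.42% in METS, so nothing is read from that count. CLIC3 lies between C9orf142 (56.1 RPKM in SA, 58.0 in SPH, 48.2 in METS and 54.5 in DLD1) and ABCA2 (8.26, 10.2, 8.90 and 8.07 in the same lines), neither of them highest in METS. The genes LCNL1, PTGDS, C9orf139 and FUT7 further out did not exceed 0.10 RPKM. Around CFTR, CTTNBP2 stood at 0.58 RPKM in SA, 0.23 in SPH, 0.32 in METS and 0.41 in DLD1, NAA38 lay between 5.36 and 6.36 RPKM, and ASZ1, WNT2, MTND4P6 and ANKRD7 did not exceed 0.01.

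Beside ANO6 the pseudogene PLEKHA8P1 stood at 0.35 RPKM in SA, 0.31 in SPH, 0.02 in METS and 0.01 in DLD1, the order of classes of ANO6, while ARID2 on the other side was level (2.46, 2.01, 2.41 and 2.31 RPKM in the same lines). PLEKHA8P1 resembles its parent gene, so its reads are uncertain. The remaining neighbours DBX2, LINC00938, RNA5SP361 and RN7SL246P are listed at 0. Named after its values were seen, RUNX3 beside CLIC4 stood at 0.44 RPKM in SA, 0.40 in SPH, 0.02 in METS and 0.01 in DLD1, unlike CLIC4 itself.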

How the data were processed

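Each of 4 cell lines gave 1 library of total RNA. The authors' deposited values, with 2 decimals, were read as RPKM, because they are not whole and the columns sum to different totals (275639 to 284919). The submitters' processing notes name hg19 as the build. Aligner, counting tool, annotation and strand use are not stated in what was at hand, so overlapping genes cannot be told apart.

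Depth was estimated as the reads per RPKM and kb at which low values of genes of 200 to 500 bases (GENCODE 29 exon lengths) came closest to whole reads. Values were compared as log2(RPKM + 1) over genes whose higher library reached 1 RPKM, and called at 2-fold. With 1 library per line these comparisons have no p-value. The class test used limma-trend (version 3.58.1 under R 4.3.3, Benjamini-Hochberg) over genes of at least 1 RPKM in 2 libraries. The fit was also run on simulated data with equal, independent spread for every gene. Real lines need not vary that way, so that run cannot show how the test performs on them. Python 3.11.15, pandas 2.3.3 and scipy 1.17.1 were used. Alternatives varied the pseudocount, filter, scaling, fold rule and trend, and dropped each library in turn.

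The members and lists were chosen with earlier results of these data known. Named were the members, list genes called, up to 3 other genes per list by mean level, the 3 genes most alike to members of wide range, and neighbours of called members. Of 89 listed genes that are not members 88 were in the table (PLSCR3 has no row of its own). A few list genes enter the counts but are not reported here by name or drawn. RefSeq names and promoter sequences are from GRCh38.p14.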

Additional observations from a re-analysis of the deposited data

How the results depend on the processing

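The members that reached 1 RPKM kept their side of the 2-fold rule under median-of-ratios factors and a pseudocount of 0.1 RPKM, and 3 of 7 had a range of at least 1 on the log2(RPKM + 1) scale under those factors too. With a pseudocount of 5 RPKM the log2 folds of ANO6 in SA and SPH and of CFTR in METS fell short of the rule (0.28, 0.27 and -0.60), as that scale compresses low values by construction. With a minimum of 5 RPKM ANO6 had no value in any comparison, CLIC3 none in SA and SPH, and CFTR none in SPH and METS.

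Counts over all genes moved with the setting. In SA the 77 genes became 211 with a pseudocount of 0.1 RPKM, 12 with 5 RPKM, 29 with a minimum of 5 RPKM, 322 by a 1.5-fold and 9 by a 4-fold rule. In SPH the 144 became 350, 24, 61, 529 and 13 in that order, and in METS the 160 became 368, 31, 88, 610 and 14. For genes of the lists the 1.5-fold rule gave 1 gene in SA, 2 in SPH, and 4 in METS, which had 0 with a pseudocount of 5 RPKM, a minimum of 5 RPKM or the 4-fold rule. In the class test 26 genes passed with a pseudocount of 0.1 RPKM, 5 with a minimum of 5 RPKM and 0 with no filter (limma-trend, 2208 at an unadjusted p under 0.05). Leaving out 1 library gave from 1 (without SA or SPH) to 288 genes (without DLD1), with 26 without METS, and from 0 to 2 of the lists. The cause of these moves was not tested. Of the 9 most alike genes 4 were shared with a pseudocount of 0.1 RPKM. No paired analysis was possible because each line has 1 library and the labels carry no replicate numbers.

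Depth limits ANO1 in METS and DLD1, values that rest on few reads, and counting intervals leave out the spread between cultures.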
